A study of Mus musculus with 6 samples.

Results

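Keratins and keratin-associated proteins are the structural proteins of epithelia, skin and hair, and this account describes where their genes carried methylated DNA in the mouse hippocampus. Members were all genes whose symbol in the peak annotation was Krt followed by a digit, or Krtap, whatever the position of the peak. They had 239 of the 148832 peaks in 6 peak lists, which merged to 83 of 48853 regions, and they were 54 of the 13142 genes with a peak (37 keratin and 17 keratin-associated genes). A region is a stretch in which peaks of any libraries shared at least 1 bp. The RefSeq table for GRCm38.p6 held 109 coding genes of these families, 53 keratin and 56 keratin-associated, and 53 of the 54 genes could be matched to it.

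Methylated DNA was immunoprecipitated with an antibody against 5-methylcytosine and sequenced (MeDIP-seq), and a peak marks a stretch with more reads than its local background. The hippocampi came from 6 male C57BL/6 mice aged 21 postnatal days. Ethanol pups (n = 3) had received 2.5 g/kg ethanol in 0.15 M NaCl, and saline pups (n = 3) 0.15 M saline, by 2 subcutaneous injections on each of postnatal days 4 and 7. The animals were described as matched littermates, but which shared a litter is not known, so the 6 were treated as independent. Peaks were called in each library separately. The ethanol lists held 23141, 34904 and 28386 peaks and the saline lists 18922, 22703 and 20776, and the background pileup, a measure of relative depth, was between 1.85 and 2.65, with both extremes in saline libraries.

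Keratins form the intermediate filaments of epithelial cells as pairs of a type I and a type II protein. In the mouse nearly all type I genes lie together on chromosome 11 and the type II genes on chromosome 15, with Krt18, a type I gene, at the end of the type II cluster next to its partner Krt8. Different pairs serve simple epithelia, the layers of the epidermis, the hair shaft and the inner root sheath that surrounds the growing hair. Keratin-associated proteins are small cysteine-rich or glycine- and tyrosine-rich proteins that embed the hair keratins, and their genes lie in clusters on chromosomes 7, 10, 11 and 16. Neurons build their intermediate filaments from other proteins, the neurofilaments among them.

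Sequences of 200 bases around the summits show the kinds of DNA behind the peaks. They are read on the strand of the gene, from 5′ to 3′, from the mm10 reference, with CpG dinucleotides in capitals. The first coding exon of Krt10 (chr11:99388926-99389125), a keratin of the suprabasal epidermis, had a peak in 5 libraries, and that of Krt25 (chr11:99322710-99322909), an inner root sheath keratin, in the ethanol libraries alone. The first coding exons of Krt2 (chr15:101817807-101818006), expressed in the upper epidermis, and Krt4 (chr15:101924355-101924554), expressed in the lining of the mouth and oesophagus, had a peak in all 6 libraries. The stretches shown for Krt10, Krt25, Krt2 and Krt4 hold 7, 9, 7 and 14 CpG in their 200 bases.
Krt10: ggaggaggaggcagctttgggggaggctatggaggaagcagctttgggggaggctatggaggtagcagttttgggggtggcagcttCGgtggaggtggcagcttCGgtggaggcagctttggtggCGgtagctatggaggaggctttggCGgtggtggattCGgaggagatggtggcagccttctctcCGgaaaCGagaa
Krt25: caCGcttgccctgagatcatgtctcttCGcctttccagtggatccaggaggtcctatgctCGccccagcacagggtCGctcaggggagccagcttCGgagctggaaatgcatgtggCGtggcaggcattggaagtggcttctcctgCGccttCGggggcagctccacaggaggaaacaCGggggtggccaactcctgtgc
Krt2: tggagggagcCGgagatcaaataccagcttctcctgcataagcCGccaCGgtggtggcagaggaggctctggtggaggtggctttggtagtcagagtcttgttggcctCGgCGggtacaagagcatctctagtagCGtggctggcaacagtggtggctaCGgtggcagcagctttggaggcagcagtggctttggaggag
Krt4: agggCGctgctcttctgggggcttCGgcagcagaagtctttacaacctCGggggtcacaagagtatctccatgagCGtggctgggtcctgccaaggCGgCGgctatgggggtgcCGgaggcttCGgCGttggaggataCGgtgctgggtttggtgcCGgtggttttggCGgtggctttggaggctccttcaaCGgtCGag

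A second kind of DNA with peaks in all 6 libraries was a run of CA or TG steps with almost no CpG. It is shown for a region upstream of the annotated start of Krt19 (chr11:100147360-100147559, minus strand), a keratin of simple epithelia, and this stretch holds 1 CpG. The region upstream of Krtap7-1 (chr16:89512029-89512228, minus strand), which codes for a glycine- and tyrosine-rich hair protein, is shown beside it as intergenic DNA with 9 CpG, of which only 3.32% of bases over the whole region are soft-masked as repeats. The other stretches above are also on the minus strand.
Krt19: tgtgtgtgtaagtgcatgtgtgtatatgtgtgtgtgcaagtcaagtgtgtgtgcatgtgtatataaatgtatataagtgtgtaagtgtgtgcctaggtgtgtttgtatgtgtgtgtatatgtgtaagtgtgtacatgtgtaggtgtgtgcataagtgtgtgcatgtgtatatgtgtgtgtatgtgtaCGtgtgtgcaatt
Krtap7-1: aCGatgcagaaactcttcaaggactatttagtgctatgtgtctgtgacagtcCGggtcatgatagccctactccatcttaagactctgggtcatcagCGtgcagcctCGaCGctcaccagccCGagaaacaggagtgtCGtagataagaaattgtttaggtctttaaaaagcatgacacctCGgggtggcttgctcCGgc

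The most frequent pattern at these genes was a peak in a single library. Of the 83 regions, 33 (39.8%) had a peak in 1 library, against 34.7% of all regions, and 16 (19.3%) had a peak in all 6, against 21.0% of all regions. By gene, 16 of the 54 (29.6%) had some peak in every library, against 6600 of 13142 genes (50.2%). These shares by gene also depend on the number of regions per gene, since any region of a gene counts. The 54 members had 83 regions, and 36 of them had only 1, while the lists as a whole held 48853 regions and 13142 genes. The 33 regions of a single library were spread unevenly, with 16 in ethanol 2, which had the longest list, and between 2 and 5 in each of the other libraries. The region of Krtap11-1 65.2 kb upstream of the gene held the highest fold enrichments of the families, from 9.63 to 12.2 over the 6 libraries. Fold enrichment is the authors' ratio of the summit to its local background, and it is used here to describe peaks and not to compare libraries. Its median over member peaks was 6.6 to 7.21 in the 6 libraries, below that of all peaks of the same list (7.23 to 7.76) in each. The median summit pileup went the other way in every library but saline 3. It was 43, 45.5 and 42 tags in ethanol and 39, 46 and 38 in saline libraries for member peaks. For all peaks it was 41, 41 and 41 in ethanol and 38, 44 and 40 in saline libraries. The median percentile of member peaks by fold enrichment within their own list was 40.0, 43.8 and 36.2 in the ethanol and 33.0, 35.0 and 30.2 in the saline libraries, without overlap. Percentiles in lists of different lengths cannot by themselves show a change in methylation. All lists were then cut to the length of the shortest, a setting chosen with the data in view. There the median percentile was 34.7, 31.8 and 37.8 in the ethanol and 33.0, 31.3 and 29.6 in the saline libraries, and the groups overlapped.

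**Figure D1:**
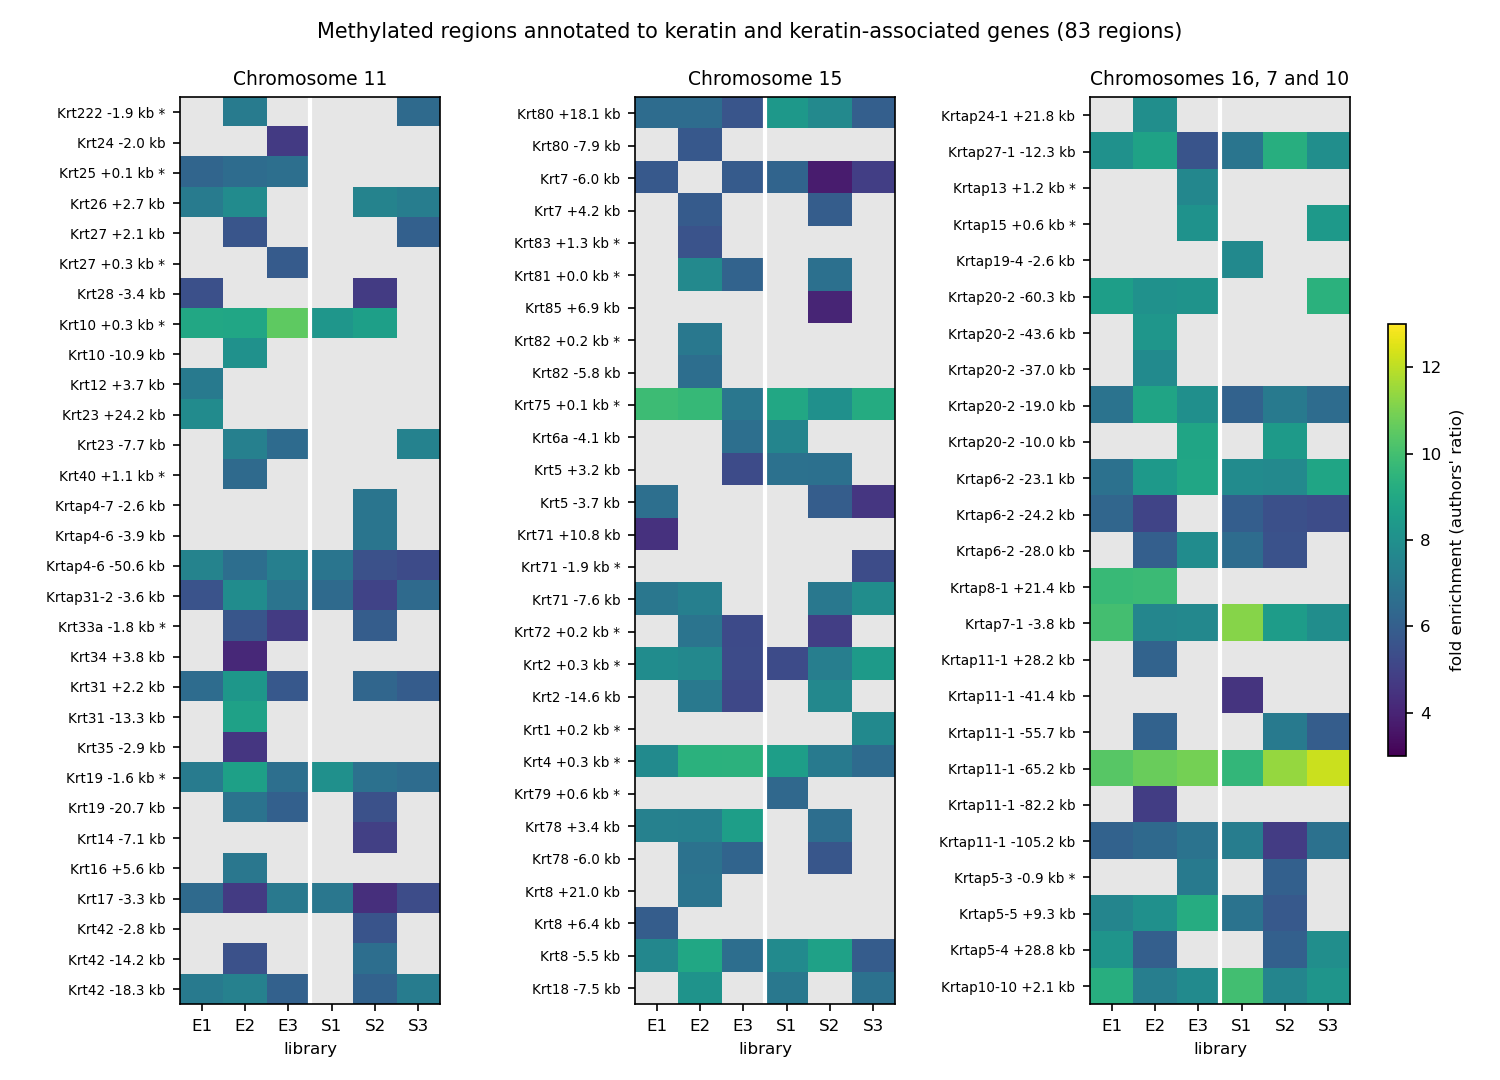
Each row is a region annotated to a keratin or keratin-associated gene, named by gene and by the distance of its summits from the annotated start in kb (* marks the promoter class), and each column a library (E, ethanol 1 to 3; S, saline 1 to 3). Colour gives the authors' fold enrichment and grey means that no peak was listed; Krt25 is filled in the 3 ethanol columns only, and 16 rows are filled in all 6.

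The number of keratin and keratin-associated peaks did not separate the groups. It was 35, 58 and 40 in the ethanol libraries and 27, 46 and 33 in the saline libraries, 44.3 ± 12.1 against 35.3 ± 9.71 (SD, n = 3 each), and the groups overlapped. As the ethanol lists were longer, the counts were also taken per 1000 peaks of the same list. These were 1.51, 1.66 and 1.41 in ethanol and 1.43, 2.03 and 1.59 in saline libraries, 1.53 ± 0.127 against 1.68 ± 0.31, again with overlap and with saline 2 the highest. The difference per 1000 peaks, -0.153 as ethanol minus saline, became 0.0201 without saline 2. Keratin genes had 21, 37 and 24 peaks in ethanol and 13, 28 and 19 in saline libraries. Keratin-associated genes had 14, 21 and 16 in ethanol and 14, 18 and 14 in saline libraries.

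**Figure D2:**
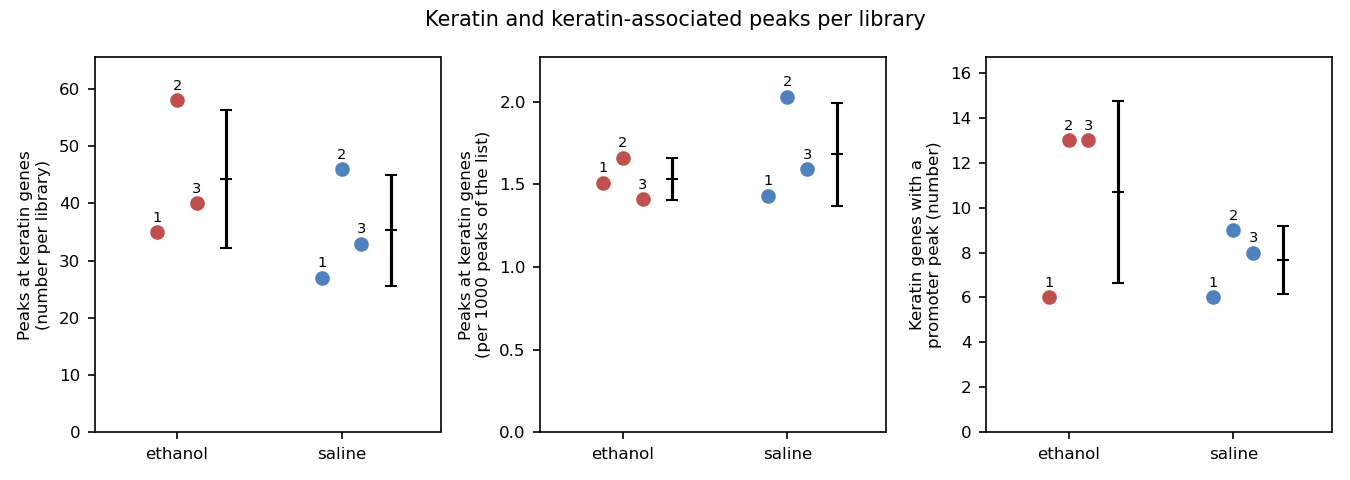
Points are the libraries (numbers are replicates) and the bars to their right the mean ± SD of 3, for the number of keratin and keratin-associated peaks, the same per 1000 peaks of the list, and the number of these genes with a promoter peak. The groups overlap in each panel; saline 2 is highest per 1000 peaks, at 2.03.

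A region was called ethanol-specific where every ethanol list and no saline list held a peak in it, and saline-specific in the reverse case; this pattern gives the smallest two-sided exact permutation p that 3 against 3 libraries allow, 0.1. Of the 83 regions 1 (1.2%) was ethanol-specific, against 1.49% of all 48853 regions, and 0 were saline-specific, against 0.108% of all regions. By gene, 1 of 54 was ethanol-specific, against 1.32% of all genes with a peak, and 0 were saline-specific, against 0.0685%. Of the 20 genes with a promoter peak 1 was ethanol-specific, against 1.71% of all genes with a promoter peak, and 0 were saline-specific, against 0.341%. When every list was shortened to the length of the shortest, 1 of 61 regions was ethanol-specific and 0 saline-specific, against 0.604% and 0.537% of all regions. The single ethanol-specific region, gene and promoter were all Krt25. For regions and for genes with any peak the members' share lay near that of the lists as a whole. For promoter genes (5.0%) and at equal length (1.64%) it lay above, and in both cases it rests on Krt25 alone.

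Krt25 pairs with type II keratins in the inner root sheath of the hair follicle. Its region (chr11:99322472-99323068) lay in coding exon 1, with summits 109, 164 and 132 bp downstream of the annotated start in ethanol 1, 2 and 3. Fold enrichment there was 6.27, 6.54 and 6.65, the summit pileup was 39, 47 and 43 tags, and -log10 q was 18.2, 22.6 and 21.1. No saline library had a peak in it, and the nearest saline peak lay 11860 bp away, at Krt26, in saline 2. The lists give no tag count where no peak was called, so the size of the difference at Krt25 is unknown, and a missing peak shows only that the threshold was not passed. The neighbouring inner root sheath genes had other patterns. Krt26 had a peak in coding exon 3 in ethanol 1, ethanol 2, saline 2 and saline 3, Krt27 had one in coding exon 1 in ethanol 3 alone and one in coding exon 4 in 1 library of each group, and Krt28 had one upstream of the gene in 1 library of each group.

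Over all 83 regions, 38 had a peak in more ethanol than saline libraries (45.8%, against 51.8% of all regions), 16 in more saline than ethanol libraries (19.3%, against 14.7%), and 29 in as many of each. Regions in 2 ethanol libraries and no saline library numbered 1, at Krtap8-1, which codes for a glycine- and tyrosine-rich hair protein (21.4 kb downstream of the start; fold enrichment 9.74 in ethanol 1 and 9.81 in ethanol 2). Regions in 3 ethanol libraries and 1 saline library were 2, in coding exon 5 of Krt78 and 60.3 kb upstream of Krtap20-2. The shares of all regions with these patterns were not counted, so whether the members stand out in them is unknown. At Krt78 the fold enrichment was 7.39, 7.35 and 8.59 in the ethanol libraries and 6.6 in saline 2. At Krtap20-2 it was 8.61, 8.06 and 8.15 in the ethanol libraries and 9.39 in saline 3.

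A larger share of the peaks at these genes lay near a gene start than in the lists as a whole. Between 17.1% and 32.5% of the member peaks of a library were of the authors' promoter class (summit within 2000 bp of the start), against 2.87% to 3.24% of all peaks. The median distance from summit to annotated start was between 3668 and 7578.5 bp for member peaks and between 53481 and 57121 bp for all peaks. The families lie in clusters of genes, and the part of gene density in these shares was not tested. Counted by RefSeq gene identifier, 18 of 53 keratin genes (34.0%) and 4 of 56 keratin-associated genes (7.14%) had a promoter peak in some library, against 1450 of 21000 coding genes (6.9%). These counts include Krt88 and Krtap16-1, which the lists give under other symbols and which are not among the 54 members. The number of member genes with a promoter peak was 6, 13 and 13 in the ethanol and 6, 9 and 8 in the saline libraries, and the groups overlapped.

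The 20 promoter regions stood at 2 kinds of position. In 10 of the 20 (50%) the median summit lay 0 to 500 bp downstream of the start, against 265 of the 1476 promoter regions of all genes (18.0%), and in 0 of the 20 it lay 0 to 500 bp upstream, against 6.37% of all. The 10 regions just after the start held 3.11 to 4.75 CpG per 100 bp, with a median of 4.04, and the other 10 held 0.353 to 3.75, with a median of 1.66. Of the 15 regions with a summit in a coding exon, 8 were in the first coding exon and 7 in a later one, and all 15 belonged to keratin genes. Coding-exon regions had 1.52 to 4.75 CpG per 100 bp, none had more than 13.1% of bases in CA or TG repeat steps, and none had more than 14.0% soft-masked bases.

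**Figure D3:**
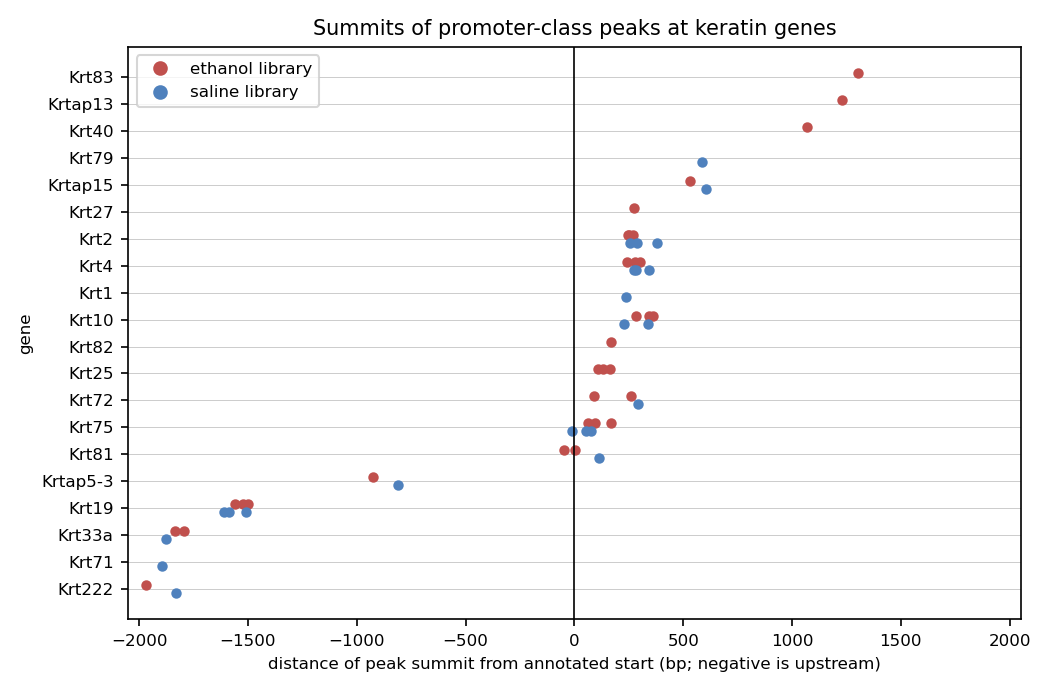
Each row is 1 of the 20 genes with a promoter peak and each point the summit of 1 library (red, ethanol; blue, saline), placed by its distance in bp from the annotated start (vertical line). A band of genes from Krt81 to Krt27 has its summits between -50 and 381 bp, and Krt19 has all 6 of its summits between -1609 and -1499 bp.

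Of the 4 promoter regions with a peak in all 6 libraries, 3 lay just after the start, at Krt2, Krt4 and Krt75, and the other was at Krt19. At Krt2 the fold enrichment was 7.86, 7.68 and 5.28 in the ethanol libraries and 5.29, 7.27 and 8.45 in the saline libraries. At Krt4 it was 7.8, 9.38 and 9.42 in ethanol and 8.61, 7.09 and 6.5 in saline libraries. At Krt75, a type II keratin of the companion layer of the hair follicle, it was 9.86, 9.71 and 6.95 in ethanol and 8.98, 8.01 and 9.17 in saline libraries, with summits from 10 bp upstream to 170 bp downstream of the start (-10 to 170) in the untranslated part of exon 1. All 3 genes had a peak in each of the 6 libraries at nearly the same place, since their summits spread over 134, 103 and 180 bp.

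The pair of the suprabasal epidermis, Krt1 and Krt10, was unlike within itself. Krt10 had a fold enrichment of 9.01, 8.91 and 10.5 in the ethanol libraries and of 8.24 and 8.64 in saline 1 and saline 2, and no peak in saline 3. Krt1, its type II partner, had a promoter peak in saline 3 alone, at a fold enrichment of 7.75, 238 bp downstream of its start. Neither gene met the rule for a group-specific gene. At Krt10 each ethanol fold enrichment was above those of saline 1 and saline 2, but fold enrichment was not used here to compare libraries. The pair of the basal epidermis was without a promoter peak throughout. Krt5 had a region in an intron (fold enrichment 5.28 in ethanol 3, 6.74 in saline 1 and 6.68 in saline 2) and another 3.7 kb upstream (6.66 in ethanol 1, 5.93 in saline 2 and 4.58 in saline 3), and Krt14 had a single peak, 7.1 kb upstream, in saline 2 at 4.91.

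Keratins of simple epithelia had their peaks away from the start. Krt8 had a region 5.5 kb upstream with a peak in all 6 libraries, at 7.61, 8.94 and 6.61 in the ethanol and 7.78, 8.71 and 5.92 in the saline libraries. Its partner Krt18 had a region 7.5 kb upstream, at 8.12 in ethanol 2, 7.02 in saline 1 and 6.74 in saline 3. Krt19 had its peak about 1.6 kb upstream of the annotated start in all 6 libraries, at 7.17, 8.67 and 6.64 in ethanol and 8.03, 6.72 and 6.53 in saline libraries. GENCODE M21 places that stretch in an intron of Krt19, so it belongs to the promoter class by its distance to the RefSeq start alone. Krt7 had a region 6.0 kb upstream in 5 libraries and one in an intron in 2. Krt8, Krt18 and Krt7 were without a promoter peak in each library.

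Keratin genes with a peak just after the start held at least 15 CpG there, but many other keratin genes with as many had none. In the first 500 bp downstream of the RefSeq start the 53 keratin genes held a median of 16 CpG (5 to 36), the 56 keratin-associated genes 7 (0 to 24) and 21000 coding genes 25. A summit fell in this window in some library for 10 keratin genes and for 0 of the 56 keratin-associated genes. The 10 keratin genes all held at least 15 CpG in it, as did 34 keratin genes in all. Among genes with at least 20 CpG there, 7 of 17 keratin genes had a summit in some library, against 145 of 12063 coding genes. Yet the keratin genes with the most CpG in the window included the 4 of simple epithelia, Krt7 with 36, Krt19 with 33, Krt8 with 29 and Krt18 with 25, and no library had a summit in the window of any of them. Krt72, an inner root sheath gene, had 28 CpG and summits in 3 libraries, and Krt4 had 25 and summits in all 6.

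**Figure D4:**
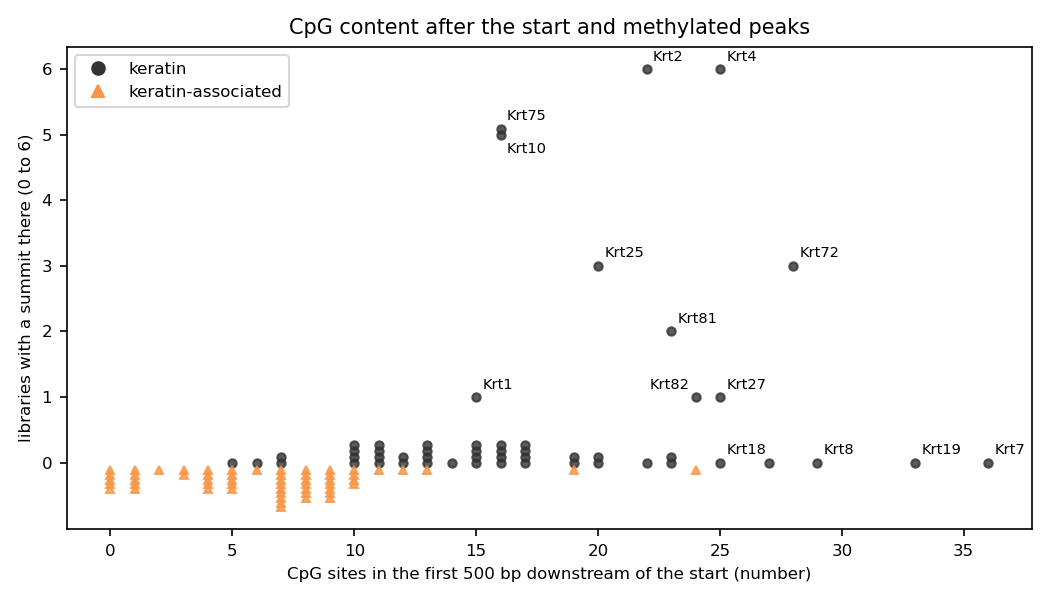
Each point is a coding gene of the families, placed by the number of CpG in the first 500 bp after its RefSeq start and by the number of libraries with a summit there (points at the same place are stacked, downwards for keratin-associated genes, all of which are at 0). Krt7, Krt19, Krt8 and Krt18 have 25 to 36 CpG and are at 0; Krt75 is at 5 because its sixth summit lies 10 bp before the start (at -10).

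No region at a keratin of the hair shaft or inner root sheath had a peak in all 6 libraries. The division into these keratins and epithelial keratins, with Krt75 of the companion layer counted among the epithelial ones, was made after the values had been seen, and the difference was not tested. The 15 genes of the hair shaft and inner root sheath had 20 regions, 0 of them in all 6 libraries. The 22 epithelial genes had 34 regions, 7 of them in all 6, and the Krt75 region is among these 7. Of all regions in the lists 21.0% had a peak in all 6 libraries. Hair shaft and inner root sheath regions with a peak numbered 6, 15 and 6 in the ethanol and 0, 8 and 5 in the saline libraries. Saline 1, which had none of them, had the shortest list. With all lists at its length the numbers were 4, 7 and 2 in ethanol and 0, 5 and 4 in saline libraries, and those of epithelial regions were 14, 12 and 11 against 13, 15 and 13. The groups overlapped in all of these counts.

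Within this set, 8 of the 11 regions at hair shaft genes had a peak in a single library, against 34.7% of all regions. The region found in the most libraries, 5, was in coding exon 4 of Krt31, a type I hair keratin, at 6.55, 8.28 and 5.77 in the ethanol libraries, 6.3 in saline 2 and 5.91 in saline 3. Krt81, a type II hair keratin, had a region across its start in 3 libraries, at 7.72 in ethanol 2, 6.19 in ethanol 3 and 6.7 in saline 2. Krt33a, another type I hair keratin, had one upstream of its start in the same 3 libraries, at 5.67, 4.73 and 5.96. Krt72 shared these libraries too, at 6.84, 5.25 and 4.86. Ethanol 2 and ethanol 3 had the longest lists of all, and saline 2 the longest list of the saline group. The remaining promoter peaks were found in 1 or 2 libraries. Those of Krt27 and of Krtap13, which codes for a cysteine-rich hair protein, were in ethanol 3. Krt40, Krt82 and the gene listed as Krt83 had theirs in ethanol 2, Krt71 had its own in saline 3, and Krt79, a keratin of the hair canal, had its own in saline 1. The transcript listed as Krt83 is now named Krt87 in RefSeq. Krt222, a keratin-like gene, and the hair-protein genes Krtap15 and Krtap5-3 each had theirs in 1 library of either group.

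Keratin-associated genes had their peaks mostly between genes and in repeats. Those on chromosome 16 had 21 regions, of which 19 were intergenic and 2 of the promoter class, and 6 had a peak in all 6 libraries. Of the 21 regions 15 lay within the span of the gene cluster, and the rest beyond its ends. The median share of soft-masked bases over the 21 was 88.3%. More than 80% soft-masked were 12 of the 21, with a median of 3.68 CpG per 100 bp. Over both families the median share was 79.5% at keratin-associated and 16.6% at keratin regions, against 44.9% of all regions. Ranked by the mean percentile of -log10 q within the lists, the first 3 regions in all 6 libraries were on chromosome 16. The first lay 23.1 kb upstream of Krtap6-2, a glycine- and tyrosine-rich hair protein gene, at percentile 91.4, with fold enrichments of 6.74, 8.36 and 8.93 in ethanol and 7.83, 7.7 and 8.89 in saline libraries. It was 99.4% soft-masked and held 5.14 CpG per 100 bp.

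The next lay 65.2 kb upstream of Krtap11-1, a hair cortex protein gene, at percentile 88.2, with 10.4, 10.7 and 10.9 in ethanol and 9.63, 11.4 and 12.2 in saline libraries, and was 99.5% soft-masked. The third lay 3.8 kb upstream of Krtap7-1, at percentile 86.1, with 10.0, 7.58 and 7.68 in ethanol and 11.2, 8.53 and 7.89 in saline libraries. Krtap11-1 had the most regions of any member, but it is the last gene of its cluster and all its upstream regions lay 41.4 to 105.2 kb from it, so a peak there is assigned to it only as the nearest gene. Krtap4-6 on chromosome 11 had a region of this kind, 99.0% soft-masked and 50.6 kb upstream, in all 6 libraries at 5.3 to 7.46. Krtap10-10, which codes for a cysteine-rich hair protein, had its region in an intron of Tspear; this region, at percentile 76.5, had fold enrichments of 9.27, 7.26 and 7.8 in ethanol and 9.96, 7.57 and 8.22 in saline libraries.

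Regions poor in CpG and rich in CA or TG steps were found beside those in exons and repeats. Of the 83 regions 22 (26.5%) held less than 1 CpG per 100 bp, against 21.4% of all regions, and 23 (27.7%) had at least 20% of their bases in CA or TG repeat steps, against 17.4%. A repeat step is any base in a match to CACA or ACAC on either strand (TGTG and GTGT on the other), overlapping matches counted once, and the 20% threshold was chosen with the data in view. Of the 22 CpG-poor regions, 16 (72.7%) reached the repeat threshold, against 54.4% of all CpG-poor regions; of the other 61 regions 7 did (11.5%), against 7.39%. Among the 16 regions in all 6 libraries 4 (25%) were CpG-poor, at Krt19, Krt8, Krtap10-10 and the most distant Krtap11-1 region, against 10.7% of all regions in all 6 libraries. These 4 had 0.353, 0.392, 0.312 and 0.0946 CpG per 100 bp and 36.0%, 36.1%, 51.9% and 47.4% of bases in repeat steps. The Krtap11-1 region, 105.2 kb upstream, had fold enrichments of 6.16, 6.43 and 6.8 in ethanol and 7.22, 4.78 and 6.73 in saline libraries. An immunoprecipitation with nonspecific IgG had been done in parallel but was not analysed here, so whether such repeats would gather reads without the antibody was not tested.

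**Figure D5:**
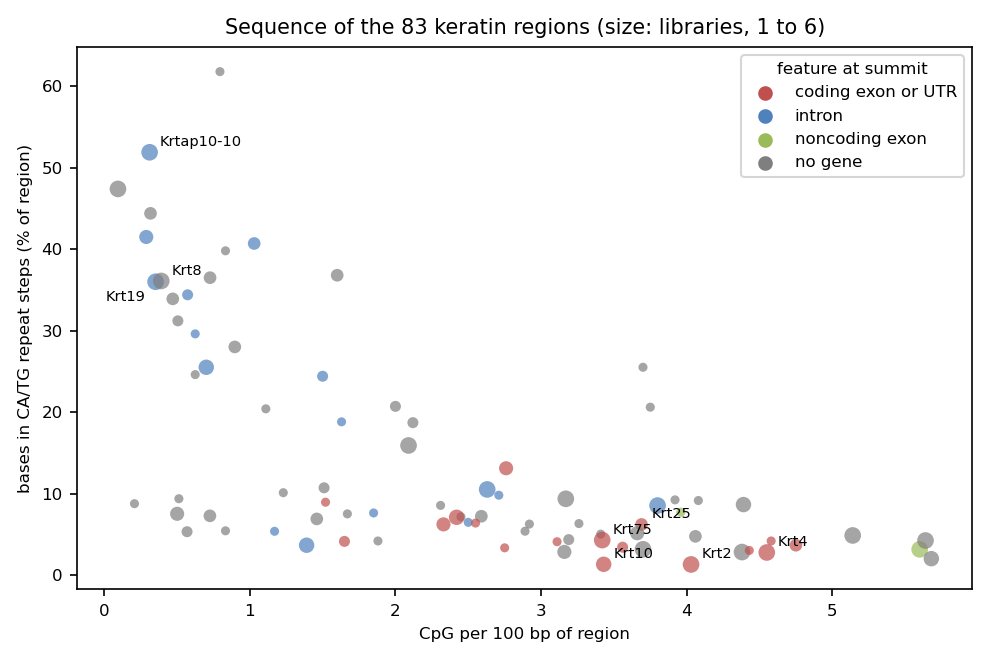
Each point is 1 of the 83 regions, by CpG per 100 bp and by the share of its bases in CA or TG repeat steps (%), coloured by the feature at the summit and sized by the number of libraries with a peak (1 to 6). Krt19, Krt8 and Krtap10-10 have less than 1 CpG per 100 bp and 36.0% to 51.9% repeat steps, and all coding-exon regions lie at the bottom, from 1.52 to 4.75 CpG per 100 bp.

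The clusters differed in how densely they held regions of any gene. The type II cluster on chromosome 15 (26 coding genes over 0.684 Mb) held 42.4 regions per Mb, the chromosome 11 cluster (50 genes over 1.04 Mb) 28.0, the chromosome 7 cluster (5 genes over 0.13 Mb) 23.1, the chromosome 16 cluster (24 genes over 0.96 Mb) 17.7 and the chromosome 10 cluster (3 genes over 0.117 Mb) 17.1, against 17.9 over the genome. The values for chromosomes 7 and 10 rest on only 3 and 2 regions, and neither of those on chromosome 10 was a member region. By library, chromosome 11 had 12, 21 and 13 member peaks in ethanol and 5, 16 and 10 in saline libraries. Chromosome 15 had 11, 18 and 13 in ethanol and 10, 16 and 11 in saline libraries. Chromosome 16 had 9, 16 and 11 in ethanol and 10 in each saline library. The groups overlapped on each chromosome. Among the members with the most regions in their clusters were Krt42 on chromosome 11, with 3 regions upstream of the gene, and Krt71 and Krt8 on chromosome 15, with 3 regions each.

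Related genes were counted in the same way, against 55.3% of 21900 coding genes with a peak and 6.02% with a promoter peak, matched by symbol. Of 50 cornified envelope genes, which build the outer shell of the keratinocyte, 17 had a peak and 2 a promoter peak (4.0%), Lce1m in 5 libraries and Tgm5 in 6. Of 15 desmosome genes, which anchor keratin filaments at cell junctions, 14 had a peak and 3 a promoter peak (20%), Dsp and Pkp3 in all 6 libraries and Dsg2 in 3. Of 15 other intermediate filament genes, vimentin, the neurofilaments and the lamins among them, 12 had a peak and 0 a promoter peak. Of 16 transcription factors of hair and keratinocytes 15 had a peak and 3 a promoter peak, Lef1 in 3 ethanol libraries and 1 saline library, Trp63 in 2 and 1, and Msx1 in 1 saline library. A promoter peak was found at 0 of 8 neuron markers and at 2 of 6 keratinocyte markers outside the keratin families, Dsp and Trp63. Any peak was found at 5 of the 8 neuron markers (62.5%) and at 4 of the 6 keratinocyte markers (66.7%). These counts do not check the labelled tissue, since no expression was measured and few genes of any kind had a promoter peak.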

How the data were processed

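Per the labels' protocols, reads from each library were aligned to mm10 with Bowtie (Bowtie2 2.1.0 per the submitters' processing notes) with peak calling by MACS (version 2, q threshold given as 1e-4). Per the file headers, each deposited peak carries the pileup at its summit (a coverage signal in tags), fold enrichment (a linear ratio), -log10 q (headed q; smallest value 5.0 to 5.23), distance to the start of the nearest gene and a class. No list held a peak with -log10 q below 5.0, so the lists are stricter than the q threshold given. Total read counts per library were not given, so depth is known only relatively, from the background pileup.

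Peaks sharing at least 1 bp were merged to regions, and a library held a region if it had a peak there. Presence in 3 of 3 against 0 of 3 libraries was the rule. Its code was checked on simulated lists with assigned patterns and well-separated peaks. As no simulated peak was lost to a threshold, this does not show how reliable the rule is in these lists. Sums over members carry no p. CpG and soft-masked bases were read from GRCm38.p6 and features from GENCODE M21. The members and lists were chosen with earlier results of these data known. Genes named were those with a promoter peak, those in group-specific regions, the 10 most significant regions in all 6 libraries, the member with most regions per cluster and 3 well-known pairs, with some others named for contrast after their values were seen. Annotated starts lay within 50 bp of RefSeq for 48 of 53 genes. Alternatives were lists of equal length, q of 1e-10, wider overlap, nearer summits, keratins alone, each library left out and a replicate block. Python 3.11.15, pandas 2.3.3, numpy 2.4.6 and matplotlib 3.10.9 were used.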

Additional observations from a re-analysis of the deposited data

How the results depend on the processing

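Of 113 values under an alternative setting 103 counted as unchanged and 10 as moved. Differences between groups had to stay within the spread, and counts of specific regions and genes within 1.5 times of the first value. The result for Krt25 and the number of libraries with a promoter peak at Krt2, Krt4, Krt10, Krt19 and Krt75 had to stay equal. The 103 include runs that could not differ, such as the replicate block. Changes of sign were not counted apart, and the difference per 1000 peaks changed sign with lists of equal length and without saline 2. Ethanol minus saline, the number of member genes with a peak was 6.33 and became 0.0 with lists of equal length, where the difference in peaks fell from 9.0 to 0.333, that per 1000 peaks turned from -0.153 to 0.0176 and that in genes with a promoter peak fell from 3.0 to 0.667. The difference in the median percentile of fold, 7.3, became 3.48 there, a setting added after seeing the data. With each library left out in turn, the difference in member genes with a peak (6.33) ranged from 3.5 to 8.83. That in peaks (9.0) ranged from 2.17 to 14.3, in peaks per 1000 (-0.153) from -0.279 to 0.0201, and in genes with a promoter peak (3.0) from 1.83 to 5.33. The ethanol-specific regions and genes, 1 each, ranged from 1 to 2 when a library was left out. Krtap8-1 joined Krt25 without ethanol 3 and Krt78 joined it without saline 2, both as region and as gene. Without saline 3 the added region was at Krtap20-2 and the added gene was Krt23. In these runs 2 of 80, 2 of 78 and 2 of 81 member regions had the pattern. Of all regions 3.65%, 3.13% and 2.6% had it. Saline-specific member regions and genes stayed at 0. Krt25 kept the rule in every alternative run. Given its summits and q, only lists of equal length and wider overlap could have broken it there. With promoter summits within 1000 bp, Krt19 had a promoter peak in 0 libraries, and with lists of equal length Krt2 had one in 5.

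Same-numbered libraries did not deviate together (correlations -0.0496, -0.0117 and 0.00249), so the numbers were not taken as pairs. A replicate block left the differences at 9.0, -0.153, 6.33 and 3.0 and the specific counts at 1 and 0, as it must with equal groups, and 3 pairs cannot give an exact p below 0.25. The lists hold no values below the threshold and 3 libraries per group, which limits what presence can show, most of all for peaks near the threshold in the shorter lists.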

Other observations

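A pair of genes outside the symbol rule now carry keratin names in RefSeq. The gene listed as 1700011A15Rik is Krt88, and it had a peak 992 to 1014 bp downstream of its start in ethanol 2, ethanol 3 and saline 1. The gene listed as Gm11570 is Krtap16-1, and it had peaks 1301 to 2393 bp downstream of its start in ethanol 2, saline 2 and saline 3. Neither was counted among the members.

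A region that is annotated to Gm4559 lies inside the cluster of Krtap5 genes on chromosome 7 (chr7:142259592-142260143) and was ethanol-specific by the same rule. Its fold enrichment was between 7.34 and 8.3 and it held 3.26 CpG per 100 bp. It was found by looking through the clusters for regions of other genes, where 1.49% of all regions had this pattern.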
